A study of Homo sapiens with 12 samples.

Results

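Cells exposed to Paclitaxel were compared with unexposed cells whatever the dose, to find the genes whose RNA separated every treated library from every untreated one. All 8 libraries that received the drug were set against all 4 that did not, so the comparison used 12 of the 12 libraries of the series. The cells were MDA-MB-231/GFP, an established triple negative breast cancer line, of genotype WT per the labels, grown as droplets of a cell and Matrigel mixture. The untreated arm held 2 libraries of day 2 (C1) and 2 of day 4 (C2). The treated arm held 2 libraries each at 0.0005, 0.005, 0.05 and 0.5 μM Paclitaxel, given on day 2 and taken on day 4. All libraries came from 1 line. The study's methods call the 2 libraries of a condition biological replicates without saying how the cultures were separated. The p-values thus measure the spread between samples of this line. In the main comparison that spread includes differences between doses and between days. No treated library was taken on day 2. The contrast of the 8 treated libraries with the 2 untreated libraries of day 4 is therefore given beside the main one for the gene lists.

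Paclitaxel binds β-tubulin within the microtubule and stabilizes the polymer, so that spindles fail and dividing cells are held in mitosis or leave it without dividing properly. Cells also control their tubulin RNA by the amount of free tubulin, and E2F transcription factors switch on the genes of DNA replication before S phase. Taxanes are in clinical use against breast cancer, and stressed epithelial tumour cells are known to release cytokines and matrix-degrading enzymes.

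The libraries held between 38380629 and 79169121 counts, and an exact permutation test gave p = 0.198 for a difference in total counts between the arms (two-sided). Most markers of the labelled line were at the levels known for it: VIM, the mesenchymal filament vimentin, ran from 796 to 1241 CPM (counts scaled to library size with TMM factors) in treated and from 894 to 1366 CPM in untreated libraries, while CDH1 (E-cadherin) was at most 0.2 CPM and ESR1 (the oestrogen receptor) at most 0.46 CPM. Others of the markers listed as low or absent were detected, with ERBB2 at 26.6 to 52.4 CPM, FOXA1 at 5.25 to 9.29 CPM and EPCAM at 4.37 to 6.77 CPM. Of 8 markers listed as present 3 were called lower in treated libraries (AXL, EGFR and CAV1) and none higher, at a median log2 fold change of -0.30, and against day 4 alone AXL was the 1 called. Without replicate 1 of untreated day 2 the count was also 1. Of all tested genes 11.3% were called lower. Markers of other cell types were low throughout. Summed over the tested members, leukocyte markers reached at most 2.45 CPM in the treated and 0.957 CPM in the untreated libraries, endothelial markers 3.24 and 1.65 CPM, and fibroblast markers 21.5 and 17 CPM. Of their tested members, 3 of 5 leukocyte, 3 of 6 fibroblast and 2 of 4 endothelial markers were called higher in the treated libraries and none lower, beside 13.1% of all tested genes called higher. That share was larger among low genes: 25.6% under 0.1 CPM, 21.7% between 0.1 and 1 CPM and 16.5% between 1 and 8 CPM. Against day 4 alone 1, 2 and 1 were called higher, beside 4.93% of all. Without replicate 1 of untreated day 2, 1 leukocyte and 1 endothelial marker were called, and 4 endothelial markers without replicate 1 of untreated day 4. CD3E, HBB and POSTN had no count in 6, 10 and 7 of the 12 libraries. The part of these markers in the results was not tested.

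Treated and untreated libraries fell apart along the main axis of variation. On the first principal component, which held 43.1% of the variance over 15779 genes, the 4 untreated libraries scored -54.8 and -24.8 on day 2 and -32.5 and -15.8 on day 4. The 8 treated libraries scored between 8.4 and 25.3, so the arms did not overlap on this axis. The untreated libraries were the more scattered arm, and on the second component (21.4%) those of day 2 lay at 20.9 and -44.7.

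**Figure D1:**
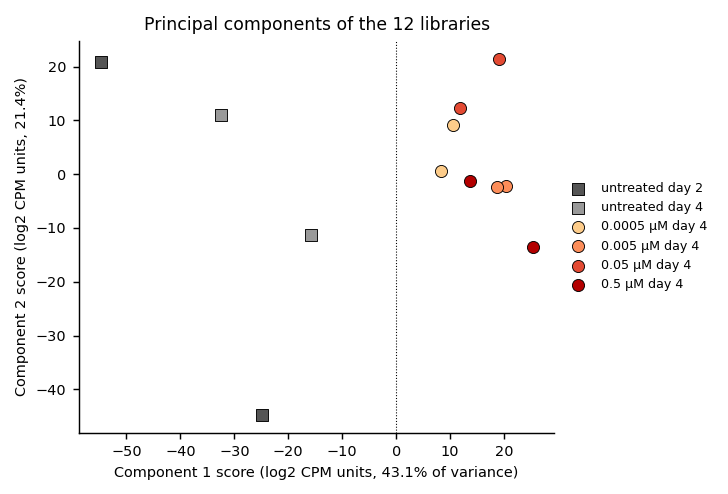
Scores of the 12 libraries on the first and second principal components of log2 CPM, squares for untreated and circles for treated libraries, coloured by condition. All treated libraries lie right of 0 on component 1 and all untreated libraries left of it, and the untreated libraries of day 2 lie 20.9 and -44.7 along component 2.

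Of 25249 genes tested by edgeR's quasi-likelihood test, 3295 (13.1%) were called higher and 2860 (11.3%) lower in the treated libraries at a Benjamini-Hochberg adjusted p-value under 0.05. In 1793 genes (7.1% of those tested) the call was higher and the lowest of the 8 treated libraries lay above the highest of the 4 untreated ones. In 1361 genes (5.39%) the call was lower and the highest treated library lay below the lowest untreated one. On the TMM scale these 3154 genes separated the arms completely, and the remaining 3001 calls came with overlap. Separation depended on the scale: it was found in 1993 genes that rose and 662 that fell on CPM without TMM, in 2339 and 598 with library size alone throughout, and in 1929 and 763 of 22268 genes with offsets for GC content and length. Scaling by library size alone gave 4099 genes called higher and 1206 lower, since it moved the median log2 fold change of all tested genes from -0.00 to 0.13. The balance of rises and falls is thus relative to the TMM scale, and the calls of the 12 leading genes each way given next held on both scales.

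Genes that separated upward and downward differed in abundance. The separating genes that rose had a median mean level of 0.535 CPM, and 1149 of them (64.1%) averaged less than 1 CPM. The separating genes that fell had a median mean level of 31.2 CPM, and 35 (2.57%) averaged less than 1 CPM. Over all tested genes between 0.1 and 1 CPM, 21.7% were called higher and 1.12% lower, against 4.14% and 21.2% between 8 and 100 CPM. The shares of all tested genes set beside gene lists throughout are not matched for abundance. The size of change differed likewise, with a median absolute log2 fold change of 1.53 among the separating genes that rose and 0.50 among those that fell. Long noncoding RNAs were called higher in 16.7% and lower in 2.24% of 3880 tested, and protein-coding genes in 12.4% and 16.5% of 14862.

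Several library measures moved with treatment beside these calls. Treated libraries had counts for 37490 ± 1647 identifiers (SD, n = 8) and untreated ones for 32540 ± 1366 (n = 4), with an exact permutation p of 0.00404 (adjusted p = 0.0222). At the depth of the smallest library the expected numbers were 34770 ± 1553 and 30960 ± 1059 (exact permutation, adjusted p = 0.0222). Identifiers without a symbol took 10.7% ± 0.265 of the counts in treated and 9.75% ± 0.53 in untreated libraries (exact permutation, adjusted p = 0.0222). Protein-coding genes took 84.9% ± 0.183 and 86.1% ± 0.532 (exact permutation, adjusted p = 0.0222). The part of these measures in the calls of low genes was not tested.

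Because the lowest genes are the least certain, genes were named from the 235 rising and 1112 falling separating genes that code for protein, carry a symbol and average at least 5 CPM. They were ranked by the gap, the log2 distance between the nearest libraries of the 2 arms. The 12 leading genes that rose had gaps of 1.23 to 2.82, and the 12 that fell had gaps of 0.60 to 0.85. Since the gap was taken from these same libraries, the gaps are a description. Against the untreated libraries of day 4 alone all 24 were also called, but those libraries took part in the choice, so this is a description too.

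IL24, a secreted cytokine of the IL-10 family, had the widest gap of all. Its untreated values were 1.04 and 0.865 CPM on day 2 and 0.77 and 0.515 CPM on day 4, and its 8 treated values ran from 7.54 over a median of 8.97 to 10.4 CPM. The treated libraries thus formed a narrow band well above every control. The log2 fold change was 3.48 ± 0.18 (SE, adjusted p = 5.8e-09 by edgeR, 11.2-fold), and no dose trend was called (slope -0.07 ± 0.05 per 10-fold dose, adjusted p = 0.49). The gene (ENSG00000162892) lies at chr1:207070788-207077484 on GRCh37, plus strand, and shares exonic bases with FCMR on the other strand.

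SERPINB2, the plasminogen activator inhibitor PAI-2, had the largest fold change of the 24. Untreated libraries held 0.773 and 1.34 CPM on day 2 and 0.262 and 0.681 CPM on day 4. Treated libraries held 8.44 to 28.4 CPM with a median of 17.5 CPM, so even the lowest treated library stood far above the controls. The log2 fold change was 4.66 ± 0.43 (adjusted p = 5.4e-06, edgeR). Its mean level fell with dose, from 28.3 CPM at 0.0005 μM to 9.25 CPM at 0.5 μM, at a slope of -0.55 per 10-fold dose (adjusted p = 7.5e-06, edgeR over the 8 treated libraries). The gene (ENSG00000197632) lies at chr18:61538926-61571122 on GRCh37, plus strand.

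DHRS2, a short-chain dehydrogenase, held 3.4, 2.45, 1.67 and 1.91 CPM in the untreated libraries of day 2 and day 4 and 12.7 to 29 CPM (median 17 CPM) in the treated ones, a log2 fold change of 3.00 ± 0.26. C1S, a serine protease that starts the classical complement cascade, held 0.787, 0.805, 1.24 and 1.69 CPM without drug and 6.24 to 7.75 CPM (median 7.04 CPM) with it, a log2 fold change of 2.62 ± 0.18. C1S varied little across doses, with a 1.19-fold range between the highest and lowest dose mean. ARC, an immediate early gene best known from neurons, held 3.75, 2.18, 5.03 and 5.56 CPM without drug and 17.6 to 36.8 CPM (median 21.2 CPM) with it.

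INHBA, which encodes the activin A subunit of the TGF-β family, held 3.29, 2.65, 3.45 and 3.61 CPM in untreated and 8.95 to 27.9 CPM in treated libraries (median 16 CPM). Its log2 fold change was 2.37 ± 0.26 (adjusted p = 1.6e-05, edgeR). SLC1A3, a glutamate transporter, held 2.73, 3.22, 2.96 and 2.78 CPM in untreated and 7.87 to 10.4 CPM in treated libraries (median 9.44 CPM). Both arms were tight for SLC1A3, and its log2 fold change was 1.68 ± 0.11. ABCC9, a sulfonylurea receptor subunit of potassium channels, held 1.04, 1.1, 1.36 and 2.15 CPM in untreated and 5.08 to 10.5 CPM in treated libraries. INHBA and SLC1A3 share exonic bases with the antisense genes INHBA-AS1 and SLC1A3-AS1, and the sources used here do not state whether counting used strand, so their reads cannot be told apart from those of the partner.

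**Figure D2:**
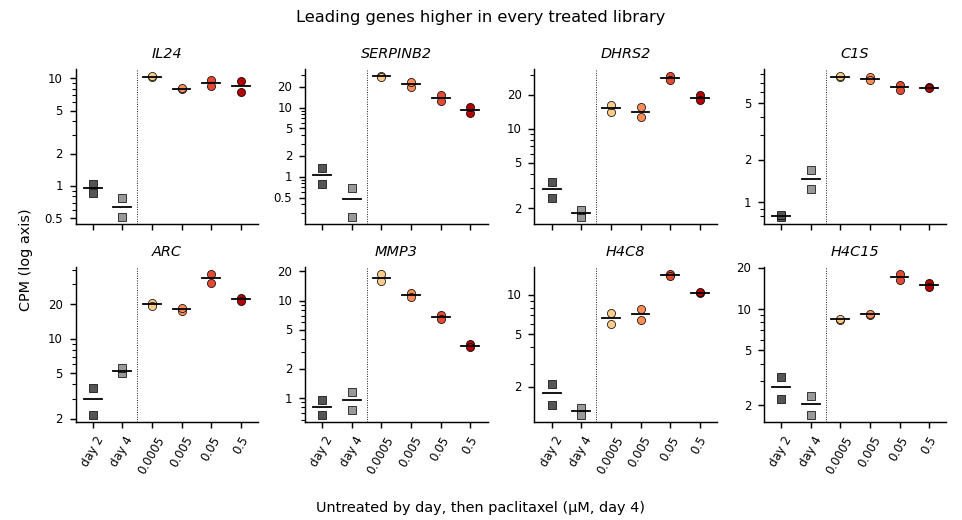
CPM on a log axis in each library for the 8 leading genes that rose, untreated libraries (squares, by day) left of the dotted line and treated libraries (circles, by dose in μM) right of it, bars for means of 2 libraries. Every treated point lies above every untreated point in each panel, and SERPINB2 and MMP3 fall with dose while DHRS2, ARC, H4C8 and H4C15 are highest at 0.05 μM.

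Matrix-degrading enzymes were among the genes that separated upward. MMP3 (stromelysin 1) held 0.674, 0.955, 0.753 and 1.14 CPM in untreated and 3.33 to 18.7 CPM in treated libraries (median 9.01 CPM), a log2 fold change of 3.48 ± 0.47 (adjusted p = 7.9e-05, edgeR). Its dose means fell from 17.2 CPM at 0.0005 μM over 11.3 and 6.81 CPM to 3.44 CPM at 0.5 μM. All doses stayed above the controls. MMP1 (interstitial collagenase) held 13.8, 25, 22.7 and 40.6 CPM in untreated and 69.7 to 305.2 CPM in treated libraries, a log2 fold change of 2.69 ± 0.44, and MMP13 3.01 ± 0.49. Of 43 tested matrix and protease genes, 9 were called higher and 5 lower, and all 9 that rose separated the arms. Over all tested genes 13.1% were called higher, 7.1% higher without overlap and 11.3% lower, and the list's median was -0.06. The falls numbered 3 without replicate 1 and 9 without replicate 2 of untreated day 2. Against day 4 alone 6 were called higher and 2 lower, beside 4.93% and 3.33% of all. COL13A1, a transmembrane collagen, fell by 0.66 ± 0.10 on the log2 scale, with 537, 374.9, 484.7 and 410.7 CPM in untreated and 273 to 309.9 CPM in treated libraries. MMP3 shares exonic bases with the opposite-strand pseudogene WTAPP1.

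Many NF-κB, cytokine and chemokine genes were called higher in treated libraries. Of 34 tested, 18 were called higher and 1 lower (IL11), beside 13.1% and 11.3% of all tested genes. The list's median log2 fold change was 1.14, beside -0.00 over all tested genes. In 13 of the 18 the arms did not overlap (7.1% of all tested genes rose without overlap). NFKBIE, an inhibitor of NF-κB that is itself an NF-κB target, held 13.9 and 13 CPM on day 2, 19.1 and 18.4 CPM on day 4 and 30.3 to 42.6 CPM in treated libraries, a log2 fold change of 1.13 ± 0.13 (adjusted p = 2.2e-05, edgeR). CXCL11, a CXCR3 ligand, was at most 0.147 CPM in untreated and 0.36 to 1.05 CPM in treated libraries. PTGS2, which encodes cyclooxygenase 2, held 32.2 and 39.3 CPM on day 2, 72.6 and 95.1 CPM on day 4 and 117 to 288.6 CPM in treated libraries, so the day 4 controls stood nearer to the treated arm than those of day 2.

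This order of controls was common in the cytokine list. Against the 2 untreated libraries of day 4 alone, 12 of the 34 were called higher (4.93% of all tested genes were) and the median was 0.53. The 1 called lower there was REL, an NF-κB subunit, which was not called in the main comparison (-0.17 ± 0.15), while IL11 was not called against day 4. The count of rises was also 12 without replicate 1 of untreated day 2. Between untreated day 4 and day 2, 8 of the 34 were called, while 29 genes (0.115%) were called over the whole table. IL32, a proinflammatory cytokine, shows the order: 2.44 and 3.79 CPM on day 2, 9.74 and 14.1 CPM on day 4 and 26.6 to 50.5 CPM in treated libraries. A dose slope was called in 20 of the 34, falling in all 20, beside 3.06% of all tested genes. CCL20, a chemokine for CCR6-bearing cells, held 0.112, 0.626, 1.88 and 3.51 CPM in untreated and 4.7 to 28.6 CPM in treated libraries, at a slope of -0.78 per 10-fold dose. Of the 13 members that separated upward, 8 had a falling slope called, and IL24, NFKBIE, RELB, CXCL5 and CXCL11 had none.

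Interferon-stimulated and antigen presentation genes leaned the same way with fewer calls against day 4. Of 42 interferon-stimulated genes 10 were called higher and none lower, of which 5 separated the arms, beside 13.1% and 7.1% of all tested genes, but against day 4 alone 1 was called (4.93% of all). That 1 was IFI27, an interferon-α inducible gene, with 0.534, 0.955, 0.524 and 0.791 CPM in untreated and 1.85 to 4.81 CPM in treated libraries. Without replicate 1 of untreated day 2 the count of rises was 6. With the 6 conditions in the model it was 17, beside 3551 of all 25249 tested genes. A dose slope was called in 25 of the 42, falling in all 25, beside 3.06% of all tested genes. Of 17 antigen presentation genes 7 were called higher and 1 lower (TAP2, a peptide transporter subunit), beside 13.1% and 11.3% of all tested genes, and 4 higher without replicate 1 of untreated day 2. The contrast with day 4 called none in either direction by edgeR. HLA-B, a class I heavy chain, held 47.6, 41.1, 70.9 and 66.2 CPM in untreated and 70 to 124 CPM in treated libraries, so its arms overlapped narrowly.

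Stress genes with known roles in the integrated stress response and the antioxidant response were among the separating genes. DDIT3, the transcription factor CHOP, held 6.22 and 10.8 CPM on day 2, 9.48 and 14.9 CPM on day 4 and 30.8 to 48.1 CPM in treated libraries, a log2 fold change of 1.91 ± 0.18 (adjusted p = 5.4e-06, edgeR). Its list of 30 ER stress and amino acid response genes nevertheless held 6 calls higher and 5 lower, with a median of -0.07, beside 13.1% and 11.3% of all tested genes called higher and lower. The falls numbered 1 without replicate 1 of untreated day 2 and 10 without replicate 2 of 0.0005 μM. The contrast with day 4 called 3 higher and, by edgeR, none lower, beside 4.93% and 3.33% of all. HMOX1, heme oxygenase 1, held 8.64, 6.47, 9.94 and 10.5 CPM in untreated and 23.4 to 60.3 CPM in treated libraries, a log2 fold change of 2.13 ± 0.27. Of 29 NRF2 and antioxidant genes 6 were called higher and none lower, at a median of -0.06, beside 13.1% and 11.3% of all tested genes, and against day 4 alone 5 and none, beside 4.93% and 3.33%. Without replicate 2 of untreated day 2 the counts were 9 and 4. GADD45A, a growth arrest gene induced by DNA damage, held 35.4, 29.6, 37.6 and 34.9 CPM in untreated and 61 to 94 CPM in treated libraries, and 5 of 25 p53 target genes were called higher and 2 lower (MDM2, the p53 ubiquitin ligase, and FDXR), beside 13.1% and 11.3% of all tested genes. GADD45A was the 1 p53 target called higher against day 4 alone, and edgeR called none lower there, beside 4.93% and 3.33% of all. Without replicate 1 of untreated day 2 the falls among p53 targets numbered 1. MDA-MB-231 is known to carry mutant p53.

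Some tubulin isotypes rose. Of 16 tested, 7 were called higher (13.1% of all tested genes were), none lower and 9 neither way. The arms did not overlap in 5 of the 7 (7.1% of all tested genes rose without overlap), and against day 4 alone 7 were called higher (4.93% of all) and none lower. With library size alone 11 of the 16 were called higher, beside 4099 of all 25249 tested genes. TUBA1A, an α-tubulin, held 293, 329.9, 328.7 and 321 CPM in untreated and 552 to 804 CPM in treated libraries (median 685 CPM). Its untreated values lay close together, and the log2 fold change was 1.08 ± 0.11 (adjusted p = 1.1e-05, edgeR). TUBB2A, a β-tubulin, held 90.2, 57.1, 71.7 and 65.1 CPM in untreated and 118 to 167 CPM in treated libraries (adjusted p = 8.2e-05, edgeR). TUBB2B held 45.3, 28.4, 35.5 and 32.6 CPM in untreated and 57.3 to 81.2 CPM in treated libraries, but TUBB2A and TUBB2B are near-identical paralogs whose reads may be split uncertainly. TUBB3, the isotype often linked to taxane response, changed by 0.99 ± 0.14.

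The most abundant β-tubulin, TUBB, held 1530, 1065, 989 and 974 CPM in untreated and 1126 to 1613 CPM in treated libraries, so its arms overlapped (log2 fold change 0.13 ± 0.14, adjusted p = 0.52, edgeR). None of the 16 tubulin genes had a dose slope called. Microtubule-binding and severing genes did not follow the tubulins. Of 25, edgeR called none higher and 5 lower (11.3% of all tested genes were), and it called none either way against day 4 alone. Of all tested genes between 8 and 100 CPM 21.2% were called lower, and of those from 100 CPM 20.8%. The count of falls ran from 1 to 10 as libraries were left out in turn, the extremes being replicates 1 and 2 of untreated day 2. TBCD, a tubulin-folding cofactor, held 107, 48.4, 70.3 and 54.1 CPM in untreated and 36.9 to 49.3 CPM in treated libraries (adjusted p = 0.0053, and 0.13 against day 4 alone, edgeR), so its arms overlapped.

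Most tested replication-dependent histone genes were called higher, while most genes of DNA replication were called lower. The leading members were H4C8, H4C14 and H4C15, which encode histone H4. H4C8 held 1.46, 2.12, 1.39 and 1.23 CPM in untreated and 6.02 to 14.3 CPM in treated libraries (median 9.01 CPM), a log2 fold change of 2.65 ± 0.26 (adjusted p = 7.5e-06, edgeR). H4C14 and H4C15 are near-identical copies whose counts differed by no more than 1% in any library, so they cannot be told apart, and their log2 fold changes were 2.42 ± 0.26 and 2.42 ± 0.25. Of 17 tested members of the list 11 were called higher and none lower, 8 without overlap, beside 13.1% and 7.1% of all tested genes. The list's median log2 fold change was 1.10, and 9 members were called higher against day 4 alone (4.93% of all). Only 23 of the 54 histone genes listed could be matched to an identifier. H2AC6, one of the more abundant members, held 9.05, 14.4, 10 and 9.44 CPM in untreated and 21.3 to 31.4 CPM in treated libraries. Replication-dependent histone RNA normally ends in a stem loop without a poly(A) tail, and the way RNA was selected for these libraries is not given in the sources used here.

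Among the 12 leading genes that fell, CHAF1A, CHAF1B and E2F1 are on the DNA replication list, RAD54L on the repair list, and NR4A1 and NR4A3 on the immediate early list. No dose slope was called in any of the 12, and their dose means differed by 1.1-fold to 1.49-fold. The choice by gap favours genes whose treated libraries lie close together, so this is a description of the genes chosen. Among the 12 leading genes that rose, 5 had a dose slope called. SERPINB2, MMP3 and INHBA fell with dose, and H4C14 and H4C15, which cannot be told apart, rose. Over all separating genes a dose slope was called in 126 of 1793 that rose (7.03%) and in 15 of 1361 that fell (1.1%), beside 3.06% of all tested. The 773 dose slopes over the table fell to 124 without replicate 1 of 0.0005 μM.

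**Figure D3:**
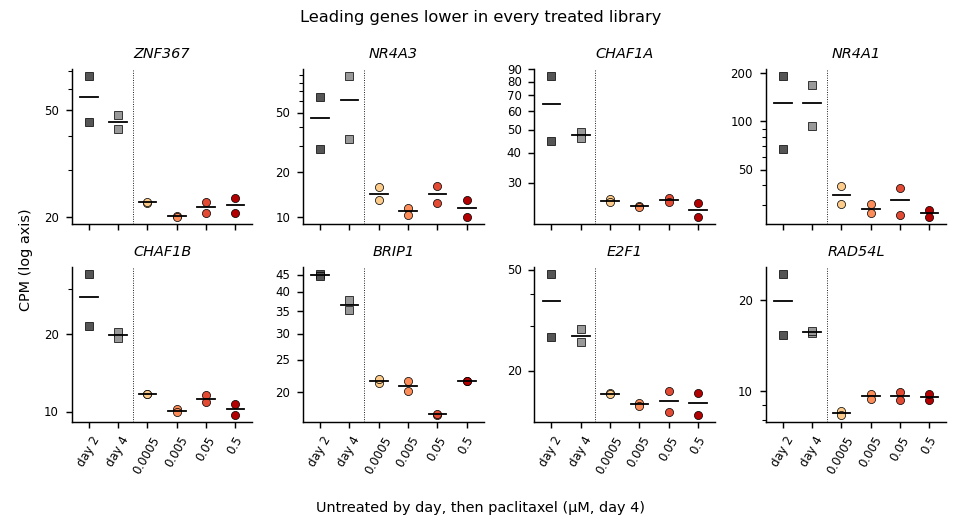
CPM on a log axis in each library for the 8 leading genes that fell, untreated libraries (squares, by day) left of the dotted line and treated libraries (circles, by dose in μM) right of it, bars for means of 2 libraries. Every treated point lies below every untreated point, and replicate 1 of untreated day 2 stands above the other 3 untreated libraries for CHAF1A (84.2 CPM) and CHAF1B (34.2 CPM).

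ZNF367, a zinc finger protein gene that is itself controlled by the cell cycle, led the genes that fell by gap. It held 66.9, 45.2, 48.2 and 42.6 CPM in untreated and 20.1 to 23.7 CPM in treated libraries (median 21.7 CPM). The treated values were close together at every dose, below all controls. The log2 fold change was -1.22 ± 0.11 (adjusted p = 3.2e-06, edgeR) and -1.06 against day 4 alone. The gene (ENSG00000165244) lies at chr9:99148223-99180652 on GRCh37, minus strand.

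E2F1, the transcription factor that activates S phase genes and its own gene, held 48, 27.1, 29.1 and 26 CPM in untreated and 13.5 to 16.7 CPM in treated libraries (median 15.6 CPM). The log2 fold change was -1.09 ± 0.14 (adjusted p = 4.5e-05, edgeR) and -0.85 against day 4 alone (adjusted p = 0.0041, edgeR). The gene (ENSG00000101412) lies at chr20:32263283-32274191 on GRCh37, minus strand. SKP2, the F-box protein that marks the inhibitor p27 for degradation, held 47.5, 37.9, 30.9 and 29.6 CPM in untreated and 15.1 to 19.2 CPM in treated libraries.

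Nearly all DNA replication genes on the list fell. Of 47 tested, 43 were called lower and none higher, beside 11.3% of all tested genes, and 38 separated the arms beside 5.39%. The median log2 fold change was -0.84, beside -0.15 over the 11193 tested genes of at least 8 CPM. Summed over the list, untreated libraries held 3191 to 4910 CPM and treated ones 2103 to 2577 CPM, without overlap. Against the untreated libraries of day 4 alone 27 of 47 were called lower (3.33% of all tested were), and the median was -0.56. Leaving out each library in turn gave 39 to 44 calls, and scaling by library size alone gave 41. No member had a dose slope called.

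CHAF1A and CHAF1B encode the large subunits of chromatin assembly factor 1, which loads histones onto newly made DNA. CHAF1A held 84.2, 45.1, 49.2 and 46 CPM in untreated and 21.5 to 25.9 CPM in treated libraries (median 24.7 CPM), a log2 fold change of -1.21 ± 0.13 (adjusted p = 1.7e-05, edgeR). CHAF1B held 34.2, 21.5, 20.4 and 19.4 CPM in untreated and 9.75 to 11.8 CPM in treated libraries. Both thus held about the same level at every dose and in every treated library. GINS2, a subunit of the replicative helicase, held 43.6, 54.9, 28.7 and 34.4 CPM in untreated and 11.6 to 20.8 CPM in treated libraries, a log2 fold change of -1.31 ± 0.15. CHAF1A shares exonic bases with UBXN6 on the other strand, and CHAF1B with MORC3 on the same strand.

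Most genes of double-strand break repair and the Fanconi pathway were called lower too. Of 33 tested, 27 were called lower and none higher, 18 without overlap, at a median of -0.53, beside 11.3% and 5.39% of all tested genes. Against day 4 alone 11 were called (3.33% of all). BRIP1, the BRCA1-associated helicase FANCJ, held 45.2 and 44.7 CPM on day 2, 35.2 and 37.7 CPM on day 4 and 17.1 to 21.9 CPM in treated libraries, with an adjusted p-value of 7.6e-06 by edgeR. RAD54L, a motor protein of homologous recombination, held 24.4, 15.4, 15.5 and 15.8 CPM in untreated and 8.35 to 9.94 CPM in treated libraries. BRCA1 changed by -0.85 ± 0.11 and FANCD2, the protein that the Fanconi core complex ubiquitinates, by -0.86 ± 0.11. RAD54L shares exonic bases with LRRC41 on the other strand.

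Some mitotic genes fell. Of 39 mitosis and spindle genes 16 were called lower, none higher and 23 neither way, 9 without overlap, at a median of -0.39, beside 11.3% and 5.39% of all tested genes. The contrast with day 4 called 3 (3.33% of all), at a median of -0.12. CDK1, the kinase that drives entry into mitosis, held 209 and 342 CPM on day 2, 157 and 179 CPM on day 4 and 78.8 to 135 CPM in treated libraries. TOP2A, the topoisomerase that untangles sister chromatids, held 723 and 816 CPM on day 2, 488 and 508 CPM on day 4 and 244 to 425 CPM in treated libraries. Both were higher in the untreated cells of day 2 than of day 4, and lower again in every treated library. A dose slope was called in 14 of the 39, rising in all 14 (3.06% of all tested genes had a slope called), whereas edgeR called none in the replication list.

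**Figure D4:**
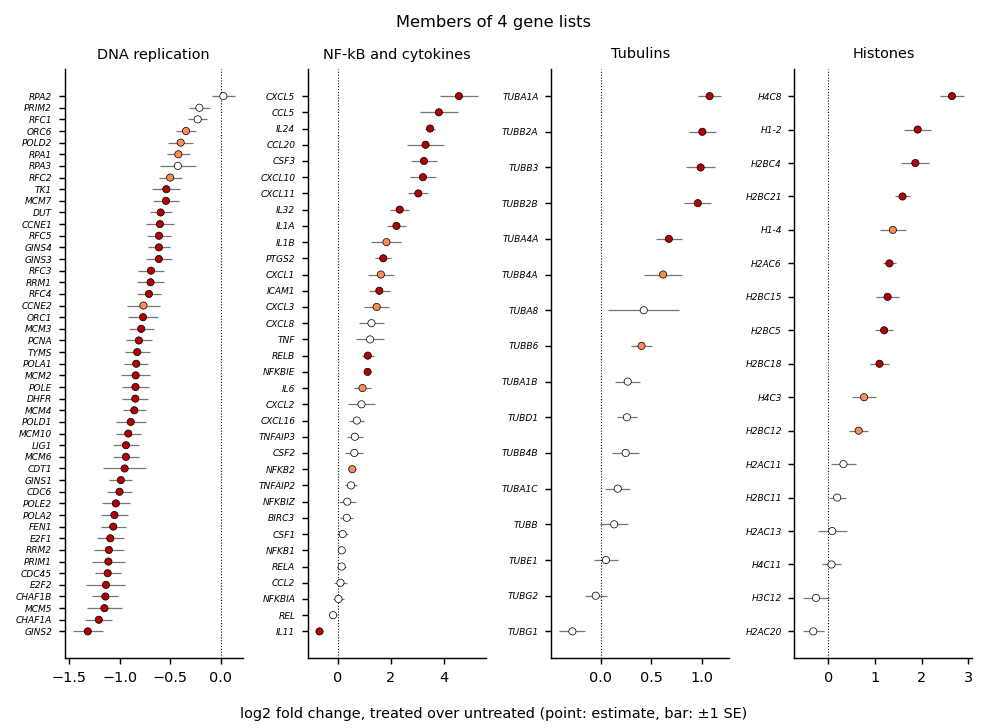
Log2 fold change of treated over untreated libraries, with bars of 1 SE, for the tested members of 4 gene lists. Red points were called with arms that did not overlap, orange points were called with overlap and white points were not called. Of the replication genes 46 of 47 lie left of 0, whereas 11 of 17 histone genes, 7 of 16 tubulin genes and 18 of 34 cytokine genes were called to the right of it.

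Immediate early genes split in both directions. Of 33 tested, 7 were called higher and 13 lower, beside 13.1% and 11.3% of all tested genes, and against day 4 alone 3 were called higher and 11 lower, beside 4.93% and 3.33%. NR4A1, an orphan nuclear receptor induced within minutes of many stimuli, held 191 and 67.6 CPM on day 2, 168 and 93.9 CPM on day 4 and 25.3 to 39.2 CPM in treated libraries (median 29.2 CPM). Its untreated values were scattered, yet the lowest lay well above the highest treated one. The log2 fold change was -2.09 ± 0.20 (adjusted p = 6.7e-06, edgeR, 4.26-fold lower). NR4A3 held 64.3, 28.7, 88 and 33.4 CPM in untreated and 10.1 to 16.3 CPM in treated libraries, a log2 fold change of -2.06 ± 0.22. The third family member, NR4A2, changed by -1.87 ± 0.21. NR4A1 (ENSG00000123358) lies at chr12:52416616-52453291 on GRCh37, plus strand, and shares exonic bases with NR4A1AS.

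Some immediate early genes went the opposite way, ARC (above) among them. EGR1, a zinc finger factor induced by growth factor signalling, held 148, 74.5, 125 and 112.5 CPM in untreated and 195 to 503 CPM in treated libraries, a log2 fold change of 1.41 ± 0.26 (adjusted p = 0.0013, edgeR). In the untreated libraries EGR1, NR4A1 and NR4A3 were each lowest in replicate 2 of day 2. Of 20 MAPK feedback genes 1 was called higher (DUSP8, a phosphatase for JNK and p38, 1.06 ± 0.19) and 2 lower, the phosphatase gene DUSP1 and SPRY1, an inhibitor of receptor tyrosine kinase signalling. Without replicate 2 of untreated day 2, 8 of the 20 were lower, beside 3444 of all 26797 genes tested in that fit. The falls numbered 4 with RLE normalization, with a replicate block and with GC and length offsets, and 5 with DESeq2. Against day 4 alone 1 was called higher and 1 lower, beside 4.93% and 3.33% of all. The main shares were below the 13.1% and 11.3% of all tested genes.

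Most cholesterol and fatty acid synthesis genes were called lower but few separated the arms. Of 29 tested, 21 were called lower and none higher, at a median of -0.49, and 4 separated, beside 11.3% and 5.39% of all tested genes. Against day 4 alone 13 were called lower (3.33% of all). The count was 11 without replicate 1 of untreated day 4, 6 against the untreated libraries of day 2 alone and 13 with library size alone. ELOVL6, an elongase of long-chain fatty acids, held 103, 114, 107 and 94.5 CPM in untreated and 52.9 to 82.9 CPM in treated libraries, a log2 fold change of -0.60 ± 0.11 (adjusted p = 0.00097, edgeR). EBP, a sterol isomerase, held 26.3, 28.9, 24.6 and 26.3 CPM in untreated and 14.4 to 21.8 CPM in treated libraries.

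Some adhesion genes and targets of YAP and SRF were also called lower. Of 25 YAP and SRF target genes 13 were called lower and 1 higher (TAGLN, an actin-binding protein), and of 36 integrin and focal adhesion genes 13 lower and 1 higher (ITGA11, a collagen receptor subunit). Over all tested genes 11.3% were called lower and 13.1% higher. Against day 4 alone these counts of falls were 3 and 5 (3.33% of all genes fell), and without replicate 1 of untreated day 2 they were 9 and 6. With library size alone they were 9 and 5, beside 1206 of all 25249 tested genes. CCN2, a matricellular growth factor and classical YAP target, held 719, 318, 528 and 345 CPM in untreated and 189 to 301 CPM in treated libraries, a log2 fold change of -0.92 ± 0.18. AXL, a receptor tyrosine kinase that is also a marker of this line, held 844, 403, 547 and 418 CPM in untreated and 240 to 347 CPM in treated libraries. NEDD9, a focal adhesion scaffold, held 42, 31.7, 65 and 41.6 CPM in untreated and 13.2 to 28.5 CPM in treated libraries, a log2 fold change of -1.27 ± 0.18 (adjusted p = 0.00016, edgeR). VCL, which encodes vinculin, changed by -0.60 ± 0.10 without overlap of the arms. FHL1, a LIM domain gene among the 12 leading genes that fell, held 21.6, 22.9, 32 and 17.2 CPM in untreated and 8.87 to 11.1 CPM in treated libraries.

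**Figure D5:**
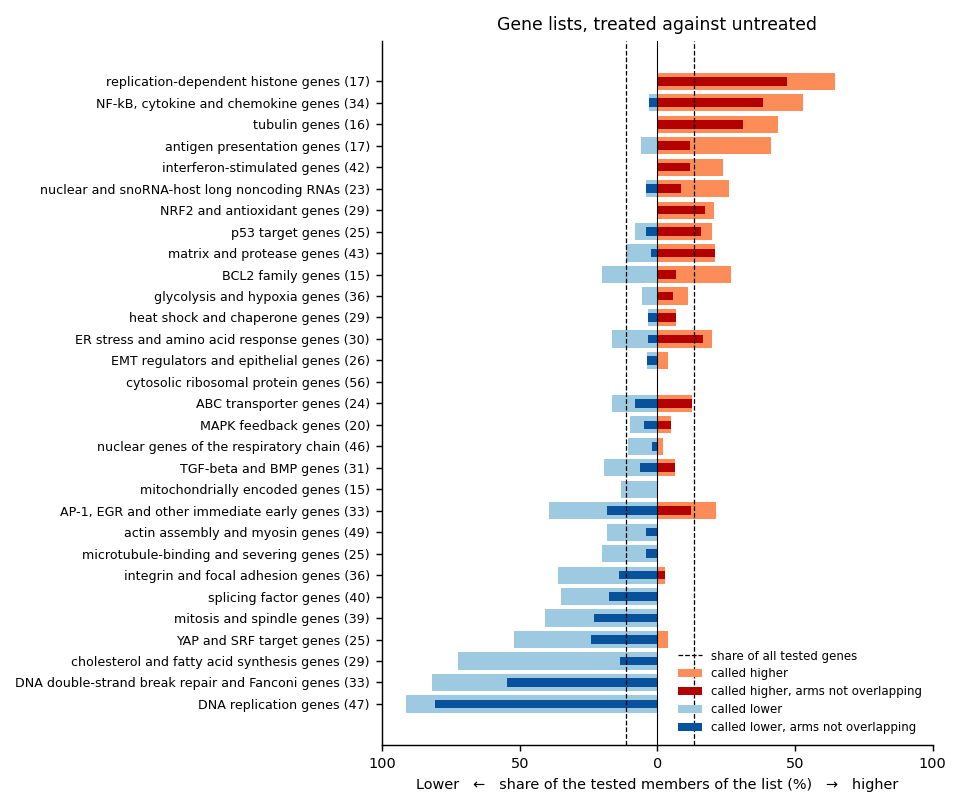
Share of the tested members of each of 30 gene lists (number tested in brackets) called lower, to the left, or higher, to the right, in treated libraries, with narrow dark bars for members whose arms did not overlap. Dashed lines mark the shares over all tested genes, 11.3% lower and 13.1% higher. DNA replication genes reach furthest left with 43 of 47 and histone genes furthest right with 11 of 17.

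The remaining leading genes that fell were DMBT1, a scavenger receptor, and PM20D2, a peptidase gene. DMBT1 held 17.9, 14.2, 17.1 and 15.1 CPM in untreated and 4.66 to 9.32 CPM in treated libraries. PM20D2 held 69.2, 65.1, 66.3 and 64.9 CPM in untreated and 37.8 to 42.7 CPM in treated libraries, with little spread in either arm. Long noncoding RNAs of at least 5 CPM separated with narrower gaps. CHILL1 rose (1.59 ± 0.24), as did EPB41L4A-AS1 (0.57 ± 0.10) and SNHG32 (0.53 ± 0.11), while LOXL1-AS1 (-0.61 ± 0.10), SERTAD4-AS1 (-0.60 ± 0.13) and FGD5-AS1 (-0.33 ± 0.08) fell. Against day 4 alone SERTAD4-AS1 (adjusted p = 0.14) and FGD5-AS1 (adjusted p = 0.1) were not called by edgeR, FGD5-AS1 was not called with library size alone either, and SNHG32 could not be told from copies with near-identical counts.

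The promoters of the leading genes were searched on both strands for fixed letters of known binding sites. RefSeq windows of 250 bases before to 50 after the start were searched for 9 of the 12 leading genes that rose and for the 12 that fell. The letters of an E2F site, TTTCGCGC or TTTGGCGC, were in 2 of the 12 windows of genes that fell, ZNF367 and E2F1, in none of the 9 of genes that rose and in 1.18% of 27305 promoters. Over the wider set, the letters were in 4.82% of the 934 windows of separating protein-coding genes that fell, in 1.55% of 194 of those that rose and in 2.13% of 8635 of all such genes of at least 5 CPM. The letters of an AP-1 site, TGANTCA, were in the SERPINB2 window, in 7.76% of all promoters and in 4.26% of those of the 8635 genes. The letters of a CRE, TGACGTCA, were in the H4C8 window, in 1.98% of all promoters and in 3.59% of those of the 8635 genes. The other letters searched were GAANNTTC (a heat shock unit, in none of the 21 windows and 6.87% of all promoters), CCAAT (35.7%), CACGTG (7.43%) and GGGCGG (44.6%). These are matches of letters and not measured binding.

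The windows with E2F, AP-1 or CRE letters are shown because they belong to leading genes of both directions, with the matching letters in capitals and the rest in lower case, 5′ to 3′ on the strand of the gene, on GRCh38.p14. The E2F1 window is chr20:33686336-33686635 (minus), that of ZNF367 chr9:96418321-96418620 (minus), that of SERPINB2 chr18:63887455-63887754 (plus) and that of H4C8 chr6:26285485-26285784 (minus). The first matching base stands at -20, -35, -102 and -131 from the start.
E2F1: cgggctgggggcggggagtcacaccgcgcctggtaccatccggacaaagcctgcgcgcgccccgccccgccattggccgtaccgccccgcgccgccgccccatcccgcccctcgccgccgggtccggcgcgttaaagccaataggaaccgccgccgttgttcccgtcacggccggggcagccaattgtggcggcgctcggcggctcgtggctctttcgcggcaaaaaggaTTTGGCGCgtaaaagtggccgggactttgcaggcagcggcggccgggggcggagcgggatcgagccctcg
ZNF367: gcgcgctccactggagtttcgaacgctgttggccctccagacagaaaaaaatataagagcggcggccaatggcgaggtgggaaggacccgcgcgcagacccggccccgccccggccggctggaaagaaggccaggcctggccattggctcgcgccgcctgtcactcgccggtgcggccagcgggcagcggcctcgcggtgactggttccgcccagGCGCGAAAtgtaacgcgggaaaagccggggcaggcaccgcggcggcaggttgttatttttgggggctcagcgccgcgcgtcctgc
SERPINB2: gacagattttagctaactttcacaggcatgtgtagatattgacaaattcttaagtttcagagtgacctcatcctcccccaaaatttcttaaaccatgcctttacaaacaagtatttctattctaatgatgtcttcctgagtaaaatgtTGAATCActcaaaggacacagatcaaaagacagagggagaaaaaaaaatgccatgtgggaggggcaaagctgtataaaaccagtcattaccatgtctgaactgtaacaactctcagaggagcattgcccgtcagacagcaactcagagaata
H4C8: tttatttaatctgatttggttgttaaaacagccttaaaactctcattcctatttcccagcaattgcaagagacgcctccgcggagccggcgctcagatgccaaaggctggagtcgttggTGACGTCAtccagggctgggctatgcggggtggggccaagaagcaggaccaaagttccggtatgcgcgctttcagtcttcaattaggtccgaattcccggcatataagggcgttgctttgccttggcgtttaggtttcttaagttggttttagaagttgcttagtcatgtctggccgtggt

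Against the untreated libraries of day 4 alone, part of the separating genes were also called. All 1793 that rose and all 1361 that fell had the same sign in that contrast, which the absence of overlap itself fixes. Of them 1034 (57.7%) and 582 (42.8%) were also called. Those libraries took part in the choice of the genes, so these shares are a description. Over the whole table that contrast called 1246 genes higher (4.93%) and 842 lower (3.33%). That contrast rests on 2 control libraries, and it called 61 genes without replicate 1 of untreated day 4 and 525 without replicate 2. For separating genes not called there, a difference from untreated cells of the same day was not established by test. Between untreated day 4 and day 2, 4 of the 1793 that rose and none of the 1361 that fell were called.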

How the data were processed

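Total RNA was extracted, and 12 libraries made from it were sequenced, 8 treated and 4 untreated. The authors deposited raw counts per gene. They trimmed reads with Trimmomatic 0.39, aligned them with STAR 2.7.5 to GRCh37 and counted uniquely aligned reads in exons. Whether counting used strand is not given in the sources used here. The table held 63568 identifiers and matched all 12 single-library files. Symbols, biotypes and overlaps came from GENCODE 44 on GRCh37, and 991 of 1027 gene list entries were matched.

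Counts were fitted with edgeR 4.0.16 (R 4.3.3; TMM, filterByExpr over the 6 conditions, robust quasi-likelihood test), with Benjamini-Hochberg adjustment over all tested genes. The model compared the 2 arms, and a model of 3 groups gave the contrast with untreated day 4. Dose slopes were fitted on log10 dose over the treated libraries. Arms were called not overlapping on log2 CPM with a prior count of 2. Library measures were tested by exact permutation, two-sided, and adjusted over the family. The steps were tested on simulated data.

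Named were the 12 widest gaps each way (protein coding, at least 5 CPM), the 3 widest among long noncoding RNAs, up to 3 called members of each list by adjusted p-value, and the markers. Other list members named (among them TUBB, TUBB3, NR4A2, EGR1, PTGS2, IL32, CCL20, MMP13, BRCA1 and REL) were chosen after their values were seen. The members and gene lists were chosen with earlier results of these data known. Alternatives covered normalization (RLE, library size alone), DESeq2 1.42.0, filters, controls of 1 day, thinning, GC and length offsets and leaving out each library. They also covered a replicate block and a model of the 6 conditions. Library size alone and the list counts were added after seeing the data.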

Additional observations from a re-analysis of the deposited data

Results flagged for a closer look

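In 4 genes of DNA replication and repair, replicate 1 of untreated day 2 stood far from the other 3 untreated libraries by Dixon's test. It held 84.2 CPM of CHAF1A, 34.2 CPM of CHAF1B, 48 CPM of E2F1 and 24.4 CPM of RAD54L. Chance flags about 1 in 20 groups, which is 3.5 of the 70 groups of values tested, and 4 were flagged. In all 4 genes the other 3 untreated libraries also lay above every treated library, which the choice of these genes fixes.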

How the results depend on the processing

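The 24 leading genes kept their calls and directions under every alternative run, while the counts of called genes depended on the controls. With a mean of at least 1 CPM, 3283 genes were called (1661 higher, 1622 lower, 1816 without overlap). Against untreated day 4 alone the numbers were 2088, 1246, 842 and 2070. Library size alone gave 1206 lower, with 2339 rises and 598 falls without overlap. Leaving out each library gave 4182 to 7078 calls, the extremes being replicates 1 and 2 of untreated day 2, with 2336 to 3839 higher, 1846 to 3444 lower and 3176 to 4422 without overlap. The contrast with untreated day 4 then ran from 61 to 3413 calls, untreated day 4 against day 2 from 2 to 588 (9 with RLE), and the dose slope from 124 to 1017. The causes were not tested. Whether replicate numbers pair the libraries is not known. Correlations of deviations ran from -0.579 to 0.573, over 0.1 in 7 of 15 pairs of conditions. They cannot settle it, since 2 libraries per condition give 1 value per pair of conditions. The replicate block gave 6108 calls, 3277 higher, 2831 lower and 3124 without overlap. A model of the 6 conditions gave 6629 calls, 3551 higher, 3078 lower and 3155 without overlap. Without replicate 2 of untreated day 2, 25 of 56 ribosomal protein genes were called higher, beside 3634 of all 26797 genes tested in that fit. In the main comparison edgeR called none of the 56. Counts of low genes are limited by depth.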

Other observations

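Of 24 ABC transporter genes 3 were called higher and 4 lower, shares near the 13.1% and 11.3% of all tested genes, and against untreated day 4 alone 3 and 2, beside 4.93% and 3.33%. Without replicate 2 of untreated day 2, 7 were lower. ABCB1, the multidrug pump P-glycoprotein that exports taxanes, changed by 1.39 ± 0.33 on the log2 scale, ABCC2 by 1.04 ± 0.20 and ABCA1, a cholesterol exporter, by 0.91 ± 0.11, all without overlap of the arms (7.1% of all tested genes rose without overlap). The falls were ABCB10 (-0.69 ± 0.10), ABCA2 (-0.68 ± 0.15), ABCA3 (-0.59 ± 0.17) and ABCD3 (-0.42 ± 0.09). With a mean of at least 1 CPM required, 22 of the 24 were tested, and ABCC2 and ABCA1 were the 2 called higher, without ABCB1. Of 15 BCL2 family genes 4 were called higher and 3 lower, beside 13.1% and 11.3% of all tested genes, and against untreated day 4 alone 1 higher (BMF) and 1 lower (BCL2L1), beside 4.93% and 3.33%. The falls were in the survival genes BCL2 (-0.72 ± 0.15), BCL2L1 (-0.55 ± 0.12) and MCL1 (-0.41 ± 0.13), and the rises in the death-promoting genes BMF (0.72 ± 0.10), BIK (0.81 ± 0.25), PMAIP1 (0.62 ± 0.15) and BAK1 (0.33 ± 0.11). The other 8 members were not called either way. BMF was the 1 member whose arms did not overlap.

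Of 40 splicing factor genes 14 were called lower and none higher, 7 without overlap, beside 11.3% and 5.39% of all tested genes. Against untreated day 4 alone 1 was called lower, beside 3.33% of all. With library size alone 3 were, beside 1206 of all 25249 tested genes, and without replicate 1 of untreated day 2, 7 were, beside 1846 of 26785. Of 29 heat shock and chaperone genes DNAJA4 (1.59 ± 0.20) and HSPB8 (1.11 ± 0.20) were called higher and CHORDC1 (-0.42 ± 0.12) lower, shares below the 13.1% and 11.3% of all tested genes. Against untreated day 4 alone the same 2 were called higher and none lower by edgeR, beside 4.93% and 3.33% of all tested genes. The falls numbered 4 without replicate 1 of 0.0005 μM. With a mean of at least 1 CPM required, 26 were tested and HSPB8 was the 1 called higher. These genes were chosen after their values were seen.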
